A study of Mus musculus with 23 samples.

Results

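Nebulin, encoded by Neb, is represented by every row that names this gene in the authors' deposited table of splicing events in mouse skeletal muscle. These rows hold 16 values for 15 distinct exons, of 252 distinct events in 221 genes, and all are skipped exons. Neb was chosen because it recurs in these lists, and its members were thus chosen by their deposited inclusion levels and probabilities: their number and levels describe that choice and are not a test of it.

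RNA of skeletal muscle from 23 male mice was sequenced in a pair of experiments, one in each of 2 strains. In the first, obesity- and diabetes-prone NZO/HIBomDife mice were fed ad libitum (5 samples), put on intermittent fasting (5 samples) or put on caloric restriction (3 samples). In the second, C57BL/6J mice, a healthy inbred strain, were left sedentary (5 samples) or were exercised (5 samples). The labels give no age, no named muscle and no length or regimen of the intervention, and strain and experiment cannot be told apart. For each event the authors' deposited table gives each group 1 inclusion level (PSI, or percent spliced in, from 0 for always skipped to 1 for always included), with no level per mouse, no error and no read depth. Its values show limits of 0.2 on the difference, in either direction, and of 0.9 on the probability of a difference. That probability comes from the authors' splicing tool and is not a p-value.

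Nebulin is a giant protein that lies along the actin thin filament of skeletal muscle and is anchored at the Z-disc. It stabilises the filament and helps to set its length, and loss of it causes nemaline myopathy in humans and weak muscle in mice. Most of the protein consists of short actin-binding repeats, many of them arranged in larger super-repeats, and the transcript is known to be alternatively spliced between muscles and during development. Because the repeats resemble each other, reads can be shared among exons. How the authors treated such reads is not stated, which leaves uncertainty about each exon's own level.

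Caloric restriction was listed with 9 Neb exons, exercise with 5 and intermittent fasting with 2. In every one of these the treated group had the higher level. Among all listed skipped exons, 50.0% were higher with caloric restriction, 40.5% with fasting and 45.7% with exercise, and among all listed events of any type 52.6%, 39.2% and 48.6%. Nothing is read from the contrast with Neb, because 15 of the 16 control levels were under 0.1, and from there a difference of 0.2 can only go up. Neb supplied 15.0% of the skipped exons listed for caloric restriction, 5.41% for fasting and 14.3% for exercise. No other gene had more than 2 events in any of the comparisons.

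**Figure D1:**
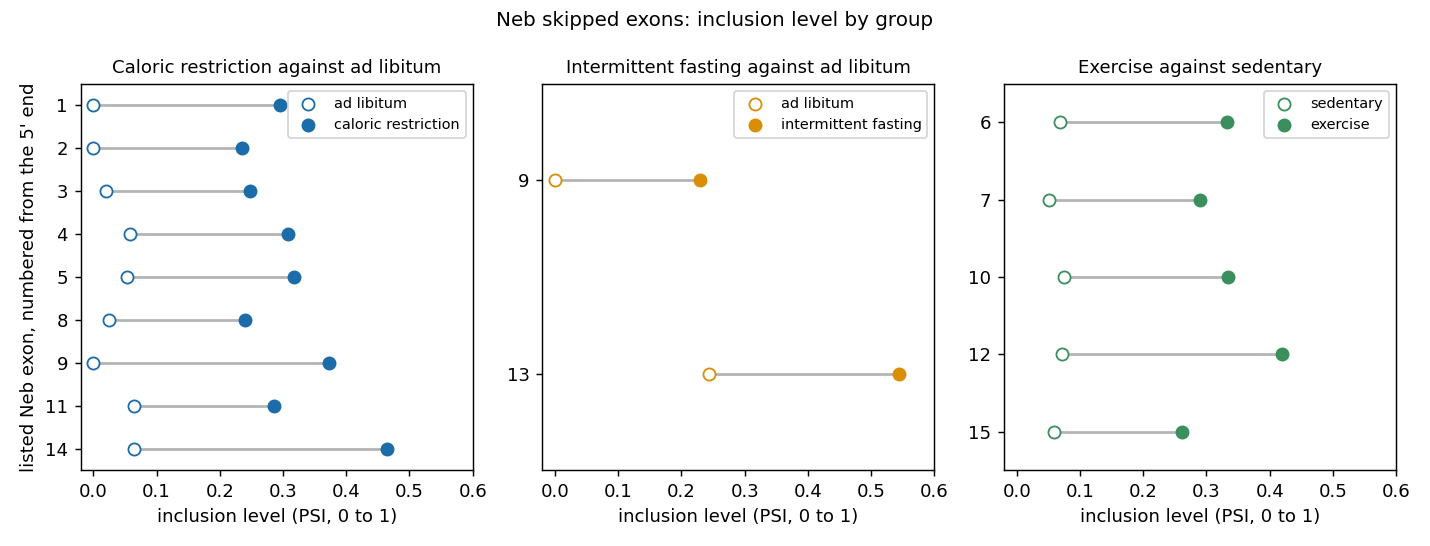
Inclusion level (x axis, PSI from 0 to 1) of each listed Neb exon in the control group (open circles) and the treated group (filled circles) of the 3 comparisons, 1 deposited level per group with no error. Exons are numbered from the 5′ end of the gene; control levels lie at or under 0.0743 except for exon 13, and only exon 13 passes 0.5 in the treated group.

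Neb lies on the minus strand of chromosome 2, from 52136640 to 52338798 in RefSeq's annotation of GRCm38.p6 (mm10), which spans 202 kb. The listed exons are numbered here from 1 to 15 in the direction of transcription. These numbers count listed exons only and are not the exon numbers of any transcript. The listed exons occupied a stretch of 70.8 kb, or 35.0% of the gene, that began 35.1 kb from its 5′ end. The last of them started 106 kb from that end, 52.3% of the way along the gene, so the 3′ part of the gene held no listed exon.

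**Figure D2:**
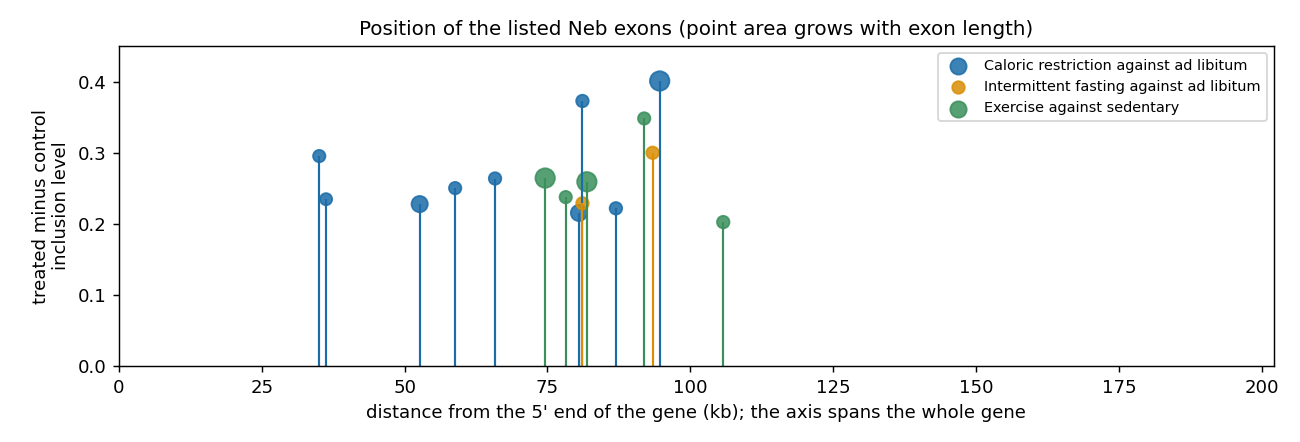
Treated minus control inclusion level (y axis) of each listed Neb exon against its distance from the 5′ end of the gene (x axis, kb, whole gene), coloured by comparison, with larger points for longer exons. The 5 exons nearest the 5′ end belong to caloric restriction. The exercise exons span the stretch from 74.6 to 106 kb, and some exons of both diets lie within it.

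Caloric restriction in NZO/HIBomDife muscle involved exons spread over 59.9 kb. By their ad libitum level they fell into 3 sets: 3 exons under 0.001, 2 exons at 0.0203 and 0.0246, and 4 exons from 0.0540 to 0.0646. The first set comprised listed exons 1, 2 and 9. In the authors' deposited table exon 1 (chromosome 2, 52303631 to 52303735, 105 nucleotides) went from 0.000329 ad libitum to 0.296 with caloric restriction. Exon 2 (52302442 to 52302540, 99 nucleotides) had levels of 0.000324 and 0.235 there, and exon 9 (52257562 to 52257669, 108 nucleotides) had 0.000326 and 0.373. These exons were thus listed as almost never included ad libitum and as included in a sizeable minority of transcripts under caloric restriction.

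Of the 4 caloric restriction events with a deposited probability of 1, these exons made up 3. Their near-zero ad libitum levels, counting exon 9 once in each dietary comparison, lay within 1.03e-05 of each other. No other listed event had a level under 0.001 in either group. Whether this value is the lowest that the authors' tool can return is not stated. Exons 1 and 2, which are 1090 nucleotides apart, also lie inside the span of the long non-coding RNA gene 4930573O16Rik (52291002 to 52315240). The RefSeq table gives no strand for that gene and the sources used here do not say whether reads were counted by strand, so reads of the overlap cannot be assigned with certainty.

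The intermediate set comprised the listed exons 3 and 8, which are also the only exons of 207 and 204 nucleotides. The authors' deposited table listed exon 3 (52285955 to 52286161) at 0.0203 ad libitum and 0.248 under caloric restriction, with a probability of 0.998. It listed exon 8 (52258088 to 52258291) at 0.0246 and 0.240, with a probability of 0.996. The difference of 0.215 for exon 8 ranked 111th in size among the 114 caloric restriction events and is the Neb difference of this comparison closest to the limit of 0.2.

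The remaining 4 exons had higher ad libitum levels and lower probabilities, from 0.936 to 0.965. In the authors' deposited table exon 4 (52279844 to 52279948, 105 nucleotides) went from 0.0577 to 0.308 and exon 5 (52272860 to 52272967, 108 nucleotides) from 0.0540 to 0.318. Exon 11 (52251707 to 52251814, 108 nucleotides) moved from 0.0646 to 0.287 in that table. Exon 14 (52243842 to 52244153), one of the long exons of 312 nucleotides, had the largest Neb difference of any comparison, 0.401, from 0.0642 ad libitum to 0.465 under caloric restriction in the deposited table, at the lowest probability of the 9, 0.936. It ranked 43rd in size among the 114 events, so none of the Neb exons was among the largest changes under caloric restriction.

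Over the 9 exons the median level in the deposited table was 0.0246 ad libitum and 0.296 under caloric restriction, and the median difference was 0.250. The 51 skipped exons of other genes listed for this comparison had a median absolute difference of 0.331. The Neb exons had a median probability of 0.996 and the other skipped exons one of 0.938. The median Neb difference was thus the smaller and the median Neb probability the higher. The 4 Neb exons with the highest ad libitum levels, at 0.936 to 0.965, were nearer to the median of the other skipped exons. Of the 9 Neb exons only exon 14, at 0.936, was under that median. Neither contrast was tested, since both measures belong to the comparison from which Neb was chosen.

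Intermittent fasting in the same strain was listed with exons 9 and 13 only. The authors' deposited table gave exon 9 a level of 0.000334 ad libitum and 0.229 under fasting, with a probability of 1. Exon 9 was the 1 Neb exon listed under both diets, which share the ad libitum mice, and its level was 0.144 lower under fasting than under caloric restriction. That gap could not be tested, because neither level has an error. Exon 13 (52245281 to 52245388, 108 nucleotides) stood apart from all other listed Neb exons: its ad libitum level in the deposited table was 0.244, and its level of 0.544 under fasting was the highest of the gene. Its difference of 0.29988 lay just under 0.3, and its probability was 0.946. For the 8 other exons of the caloric restriction list no fasting level was used here. A missing entry does not show that the level was the same as ad libitum.

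In C57BL/6J muscle, exercise was listed with exons 6, 7, 10, 12 and 15, none of which was listed under either diet. That was the common case in the table: of the 30 skipped exons of other genes listed for exercise, 1 was also listed under a diet, and 240 of the 252 distinct events were listed in 1 comparison only. The levels of the Neb exercise exons were close together. The authors' deposited table gave sedentary levels between 0.0519 and 0.0743 and exercised levels between 0.261 and 0.420, with medians of 0.0678 and 0.332. The lowest exercised level was thus well above the highest sedentary one, although the limit on the difference by itself forces such a gap for exons that start this low.

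Exon 12 (52246760 to 52246864, 105 nucleotides) had the largest exercise difference of the gene. In the authors' deposited table it went from 0.0720 sedentary to 0.420 exercised, with a probability of 0.983. The long exons 6 (52263886 to 52264197) and 10 (52256581 to 52256892), of 312 nucleotides each, had nearly the same levels, at 0.0678 and 0.332 for the former and 0.0743 and 0.333 for the latter in that table. Their probabilities were 0.935 and 0.912.

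The other exercise exons had smaller differences. Exon 7 (52260494 to 52260598, 105 nucleotides) went from 0.0519 to 0.289 in the authors' deposited table. Exon 15 (52232921 to 52233028, 108 nucleotides) went from 0.0589 to 0.261 in the same table, and its difference of 0.203 was the smallest of all 72 exercise events, just inside the limit. Events under the limits were not used here, so the Neb exons just outside them cannot be given. The median Neb difference after exercise was 0.259, beside a median absolute difference of 0.298 for the 30 skipped exons of other genes.

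The exercise exons and the dietary exons interleaved along the gene. The exercise exons spanned 31.3 kb, and 10 of the 15 listed exons lay within that span, 4 of them from the caloric restriction list. Exons 8, 9 and 10, separated by 418 and 669 nucleotides, lie together within a stretch of 1711 nucleotides. Exon 8 was listed for caloric restriction, exon 9 for both diets and exon 10 for exercise. The 5 exons upstream of this span, exons 1 to 5, were all listed for caloric restriction and for nothing else. Between neighbouring listed exons the median gap was 4026.5 nucleotides and the largest 16280 nucleotides. Whether unlisted exons lie in those gaps was not determined here.

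The lengths of the Neb exons, which were not used to choose them, took only 6 values. There were 5 exons of 108, 4 of 105 and 3 of 312 nucleotides, and 1 each of 99, 204 and 207. With positions taken as 1-based and inclusive, which no header states, all 15 lengths were divisible by 3, and with starts counted from 0 none would be (0 of 15). On the first reading, inclusion or skipping of any of these exons would keep the reading frame if it is coding throughout. Among the 111 distinct skipped exons of other genes, 59 (53.2%) had a length divisible by 3, and 4 had one of the lengths found in Neb. Exons of 1 gene built of repeats are not independent, so no test was made of this contrast.

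On the same reading of positions, and if coding, which was not checked against a transcript, exons of 105 and 108 nucleotides would encode 35 and 36 residues, close to the size of a single nebulin repeat. The exons of 312 nucleotides would encode 104 residues, and those of 204 and 207 nucleotides 68 and 69. The same size classes recurred in different comparisons. Of the 312-nucleotide exons, 1 was listed for caloric restriction and 2 for exercise. Of the 105-nucleotide exons, 2 were listed for each of these. The 9 caloric restriction exons add up to 1356 nucleotides (452 residues), the 5 exercise exons to 942 (314 residues) and the 2 fasting exons to 216 (72 residues). Such sums would describe a real transcript only if the exons were included together, which the levels do not show.

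**Figure D3:**
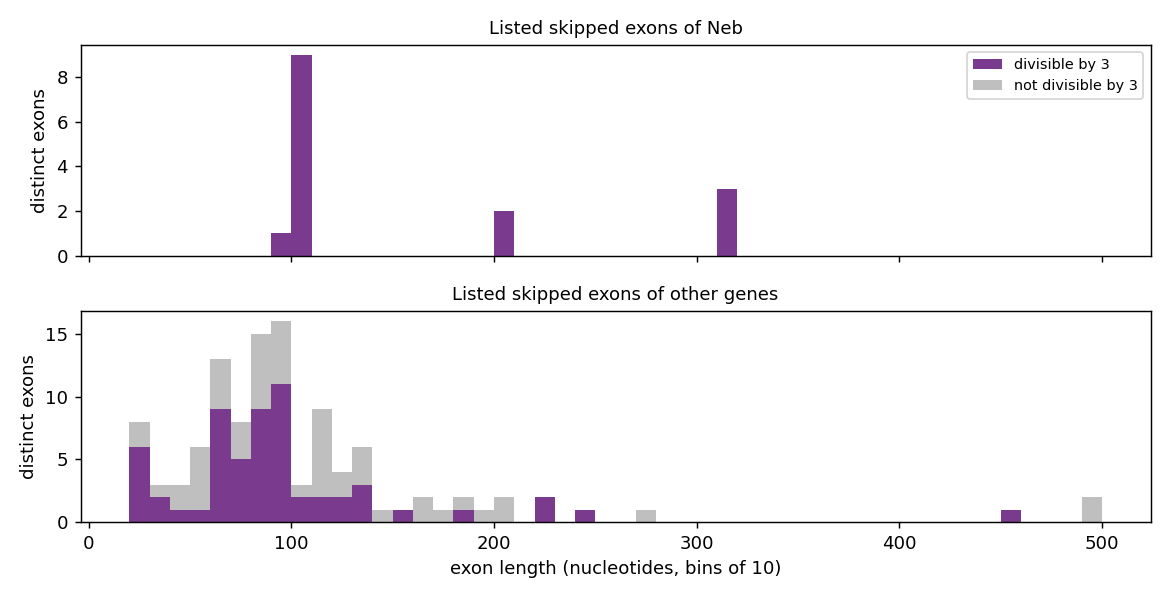
Number of distinct listed skipped exons (y axis) by length (x axis, nucleotides, bins of 10) in Neb (top) and in all other genes (bottom), split by whether the length is divisible by 3. The 15 Neb exons fall at a few lengths, all divisible by 3 with positions taken as 1-based, whereas 59 of the 111 exons of other genes are divisible by 3.

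Neb exons differed in starting level from the other skipped exons of the table. A control level under 0.1, a limit set after the levels were seen, was found for 15 skipped exon values over the comparisons (9 for caloric restriction, 1 for fasting and 5 for exercise), and every one belonged to Neb. The lowest control level of a skipped exon in any other gene was 0.170 in the caloric restriction list, 0.208 in the fasting list and 0.354 in the exercise list of the authors' deposited table. The medians for other genes were 0.706, 0.667 and 0.646 in the same order. Control levels under 0.1 were found for 7 events of another type, of which 4 were retained introns.

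The levels reached after treatment differed as well. Of the 45 values for skipped exons of other genes that were higher in the treated group, none stayed under 0.5, and the lowest were 0.518 with caloric restriction, 0.551 with fasting and 0.766 with exercise in the authors' deposited table. Of the 16 Neb values, 15 stayed under 0.5. Skipped exons of other genes that were higher had median treated levels of 0.905, 0.894 and 0.878 in these comparisons. After a listed gain, exons of other genes were included in most transcripts, and those of Neb, apart from exon 13, still skipped in most. Most of these 45 values of other genes were already over 0.5 in the control group, such as that of Col7a1 for caloric restriction (0.763 ad libitum). A higher value could then not end under 0.5. Others started lower, and their gains varied: with caloric restriction Lrrc51 went from 0.170 to 0.759 and Thoc7 from 0.298 to 0.518. The contrast in the level reached thus mixes the starting level with the size of the gain, and the share of each was not tested. These contrasts are descriptions of the listed values, which also chose the gene.

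**Figure D4:**
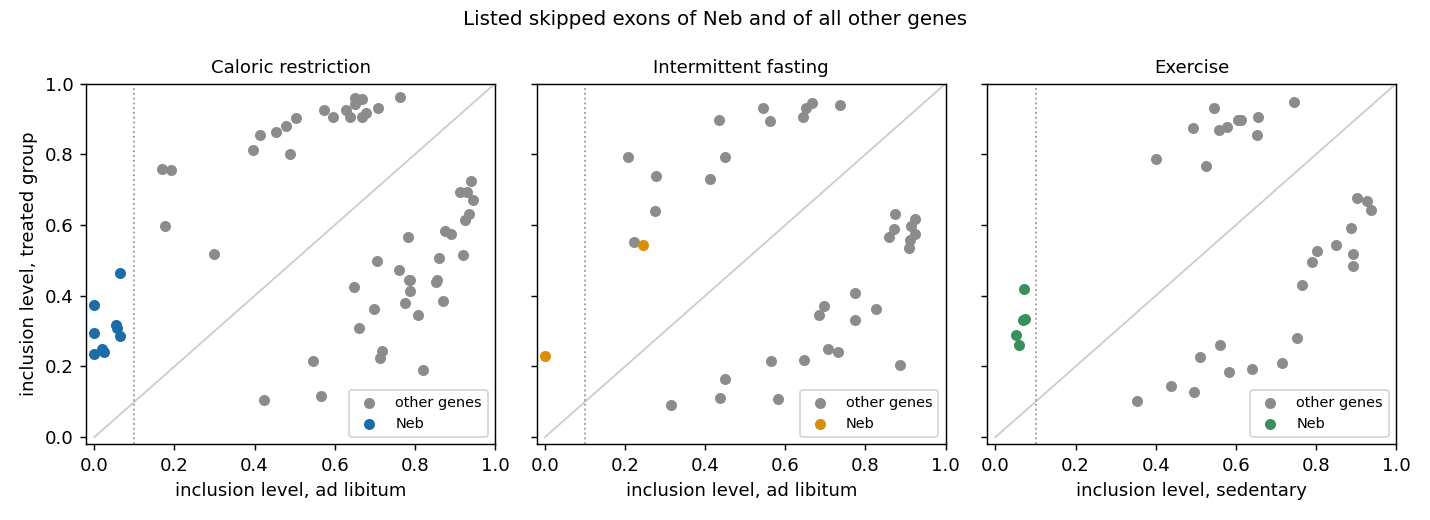
Treated (y axis) against control (x axis) inclusion level of every listed skipped exon in the 3 comparisons, with Neb in colour, all other genes in grey, the diagonal marking equal levels and the dotted line a control level of 0.1. All points left of the dotted line are Neb exons, and these lie under 0.5 on the y axis.

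The size of Neb sets it apart from most genes of the table. Its span of 202 kb compares with a median of 32.5 kb for the 218 other genes found in RefSeq, of which 14 are at least as long. RefSeq lists 29 transcripts of Neb, 1 curated and 28 predicted, against a median of 7, and 10 other genes have at least as many. Whether the number of listed exons follows from the size of the gene, its expression or its read depth was not tested.

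Listed events were sparse over the genome: 214 of 21900 protein-coding genes in the RefSeq table (0.977%) had one in any comparison, and 0.443% had one for caloric restriction. How many of those genes could be tested is unknown, and at such shares the counts below are too small to set any gene list apart. Of 33 other genes of the thin filament, among them the nebulin relatives Nebl and Nrap, the actins, the tropomyosins, the troponins, the leiomodins and the filament-capping tropomodulins, 0 had a listed event in any comparison. Of 59 genes of the Z-disc, M-band, titin and thick filament, only Ank1, an ankyrin of the membrane skeleton with a muscle form that binds obscurin, was listed, with lower inclusion of a 24-nucleotide exon under fasting (0.925 ad libitum and 0.617 in the authors' deposited table). Of 61 splicing regulators, which include the muscle factors of the Rbfox, Mbnl, Celf and Rbm20 families, 2 were listed, both for caloric restriction: Rbm10 and Tia1, each with higher inclusion of an alternative splice site. None of the 9 muscle marker genes and none of the 13 markers of adipocytes, endothelium, immune cells and fibroblasts had a listed event. The table holds no expression levels, so the tissue label could not be checked against those markers.

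Neb shared its presence in all comparisons with only Hectd2, a ubiquitin ligase gene, and Zfp446, a zinc finger gene. Zfp446 had the same retained intron in each list. Hectd2 had an alternative 3′ splice site listed under both diets and a skipped exon listed for caloric restriction and exercise. The splice site fell from 0.710 to 0.158 with caloric restriction and from 0.713 to 0.236 with fasting. The skipped exon rose from 0.668 to 0.907 with caloric restriction and from 0.655 to 0.905 with exercise. In the authors' deposited table the Zfp446 intron rose from 0.306 ad libitum to 0.817 with caloric restriction and to 0.688 with fasting. With exercise it rose from 0.503 sedentary to 0.880. These are levels of a retained intron and are not set against those of the Neb exons.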

How the data were processed

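Total RNA of skeletal muscle was extracted with a DNase step and sequenced by a provider, per the labels' protocols. The series' design text names Whippet and rMATS for the splicing analysis. Which tool gave which value, the aligner, versions and read depth are not stated. Per the submitters' processing notes, mm10 was the genome build. The deposited table of called events has 3 blocks, one per comparison. Per the file headers it holds an inclusion level per group as a fraction from 0 to 1, the difference as control minus treated, a probability and a confidence class (1 for all Neb values, meaning not stated). The sign was turned to treated minus control. How samples of a group were combined is not stated.

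Groups came from the intervention label. Neb rows were taken by gene symbol, and positions were taken as 1-based and inclusive of both ends, since no header says how they are counted. Levels, lengths, positions and counts were computed with Python 3.11.15, numpy 2.4.6 and pandas 2.3.3, and figures with matplotlib 3.10.9. The table reader was tested on simulated data. No test was run, since there is 1 level per group. The alternatives were a probability of at least 0.95, a difference of at least 0.3, class 1 only, merged overlapping exons and another way of counting positions. Every Neb exon is named, with members of the gene lists that have an event, genes with 3 or more events in 1 comparison (0 besides Neb) and genes listed in all comparisons. The gene and the lists were chosen with earlier results of these data known. Gene spans and transcript numbers are from RefSeq's GRCm38.p6 table. Exon sequences were not used here.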

Additional observations from a re-analysis of the deposited data

How the results depend on the processing

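The number of listed Neb exons depended on the limits. At a probability of at least 0.95, caloric restriction kept 8 of 9 exons, while fasting fell from 2 to 1 and exercise from 5 to 2. At an absolute difference of at least 0.3, 2 exons were left under caloric restriction, 0 under fasting (exon 13 at 0.29988) and 1 after exercise. The median differences of the exons left by that limit were 0.387 and 0.348 for caloric restriction and exercise, higher by construction. Confidence class 1 alone and merging of overlapping exons changed no value. If starts were counted from 0, none of the lengths (0 of 15) would be divisible by 3. Of the skipped exon values with a low control level, Neb held 6 of 6 under 0.05, 83.3% under 0.2 and 66.7% under 0.3, limits added after the data were seen. Identity between exon sequences, which had been listed as an alternative, was not run because no exon sequence was used here. No paired analysis was possible because only group levels are deposited. No replicate could be left out for the same reason, so the part of any one mouse in a difference was not tested, and the depth behind each level is unknown.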
